A study of Homo sapiens with 2 samples.

Results

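Assembled transcripts are transcript models built from the reads themselves, which here carry an assembler's identifier in place of an Ensembl one. All 1039 such transcripts on chromosomes 1 to 22 were examined, out of 47892 transcripts in the deposited table. They were chosen by the form of their identifier and by chromosome, and no expression value entered the choice. A model built from reads still needs reads, so the set is not independent of expression. An Ensembl identifier carries no such need, so all listed transcripts are an unlike background in this respect. Another 36 assembled transcripts lay on the X chromosome or on unplaced scaffolds. Expression was measured by RNA-seq in 1 library of SKOV3-OR cells and 1 library of SKOV3 parental cells. SKOV3 is an established human ovarian cancer cell line. SKOV3-OR was derived from it by unbroken culture with olaparib for at least 3 months, at a dose set to 50% of the concentration that inhibits growth half-maximally. Olaparib blocks the DNA repair enzymes PARP1 and PARP2. The parental line was untreated. Both lines are given as wild type in genotype and were grown in McCoy's 5A medium with serum, and both libraries were made from total RNA after depletion of ribosomal RNA. The labels do not say whether SKOV3-OR is 1 clone or a mixed population. In bulk RNA, fewer cells that make a transcript and less of it per cell cannot be told apart.

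With 1 library per line there is no replicate error, and the differences below describe these 2 libraries without a test. Each transcript has 1 normalized value per library, called its listed value, whose unit the table does not name, and the sequencing depth is unknown. The listed values of all transcripts summed to 47632 in SKOV3-OR and 46879 in SKOV3 parental cells. A log2 ratio is log2(SKOV3-OR value + 1) minus log2(SKOV3 parental value + 1), so it understates differences of low transcripts. Counts past 2-fold were taken among transcripts with a mean listed value of at least 1. Of 10 marker genes of epithelial ovarian carcinoma, 8 had listed transcripts, with sums of 402 in SKOV3-OR and 249 in SKOV3 parental cells. A value of 1 was reached by 4 of them in SKOV3-OR and by 4 in SKOV3 parental cells. MUC16 and WT1 had no listed transcript. The 2 of 5 fibroblast markers with a transcript summed to 0.212 in SKOV3-OR and 0.273 in SKOV3 parental cells, and no transcript of the 5 leukocyte or 4 endothelial markers was analysed here.

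In human gene nomenclature the suffix AS marks a transcript antisense to a named gene, OT marks one that overlaps a named gene, and the prefix LINC marks a long intergenic non-coding RNA. Antisense and overlapping transcripts can share a promoter with the gene they are named for, can read into it, or can be fragments of a neighbouring gene. Assemblers also join reads into models wherever coverage allows, so an assembled model can be an unannotated RNA, an extended isoform or a piece of a known one. Of the 1039 transcripts, 729 had names with OT, 120 had names with AS and 190 had names with LINC. The OT transcripts carried the Ensembl gene identifiers of 628 genes, while the AS and LINC transcripts carried only assembly identifiers. The table gives no strand, so that antisense is known only from the name.

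The sequences shown here belong to histone genes, which lie under 4 assembled transcripts past 2-fold, among them some of the most abundant. Replication-dependent histone mRNAs are made in S phase and end in a stem-loop in place of a poly(A) tail. The windows below, from RefSeq (GRCh38.p14), run from 250 bases before to 50 bases after the start of each gene. They are HIST1H2BJ (chr6:27132746-27133045, minus strand), HIST1H2AC (chr6:26123922-26124221, plus strand), HIST2H4B (chr1:149861110-149861409, minus strand) and HIST1H2BD (chr6:26157871-26158170, plus strand). Capitals mark the motif CCAAT, read as ATTGG on the other strand, and the motif TATAA, read as TTATA on the other strand. Where forms of the second motif overlap, each form is counted.
HIST1H2BJ: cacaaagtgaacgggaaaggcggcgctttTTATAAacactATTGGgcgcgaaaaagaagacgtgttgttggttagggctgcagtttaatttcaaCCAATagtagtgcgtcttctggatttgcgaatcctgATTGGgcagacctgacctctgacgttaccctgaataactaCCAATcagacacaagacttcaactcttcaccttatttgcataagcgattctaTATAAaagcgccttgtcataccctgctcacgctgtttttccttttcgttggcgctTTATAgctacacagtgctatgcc
HIST1H2AC: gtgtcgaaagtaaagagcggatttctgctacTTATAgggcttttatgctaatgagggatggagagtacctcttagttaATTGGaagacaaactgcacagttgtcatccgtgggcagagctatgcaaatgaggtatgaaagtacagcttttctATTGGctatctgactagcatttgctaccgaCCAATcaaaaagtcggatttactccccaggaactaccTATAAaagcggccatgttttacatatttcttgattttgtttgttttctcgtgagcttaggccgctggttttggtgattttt
HIST2H4B: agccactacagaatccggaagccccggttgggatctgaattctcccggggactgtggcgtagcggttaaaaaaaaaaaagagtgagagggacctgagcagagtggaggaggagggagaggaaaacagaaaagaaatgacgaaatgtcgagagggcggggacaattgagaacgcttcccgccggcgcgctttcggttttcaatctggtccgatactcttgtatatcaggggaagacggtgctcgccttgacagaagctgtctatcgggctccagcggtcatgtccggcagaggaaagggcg
HIST1H2BD: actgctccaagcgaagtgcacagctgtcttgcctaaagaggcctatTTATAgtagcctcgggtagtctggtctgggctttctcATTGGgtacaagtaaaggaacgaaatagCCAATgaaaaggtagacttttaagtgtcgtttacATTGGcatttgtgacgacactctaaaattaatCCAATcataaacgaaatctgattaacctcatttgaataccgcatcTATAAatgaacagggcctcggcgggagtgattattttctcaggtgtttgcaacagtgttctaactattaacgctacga
The HIST1H2BJ window held 4 CCAAT and 4 TATAA matches, that of HIST1H2AC 3 and 2, and that of HIST1H2BD 4 and 2. The HIST2H4B window held neither. Of 35116 promoter windows of the same length, 34.6% held CCAAT and 20.4% held TATAA on either strand. A match is a description of the letters and not a binding site. The assembled transcript HIST2H4B-OT1 covered all 300 bases of its window, and the other 3 shared 39 (HIST1H2BJ), 33 (HIST1H2AC) and 32 (HIST1H2BD) bases with theirs.

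Of the 4 transcripts over these histone genes, the 3 most abundant were lower in SKOV3-OR and the least abundant was higher. These 4 were picked out after their values were seen. For comparison, 11.8% of all listed transcripts with a mean of at least 1 were higher in SKOV3-OR by 2-fold or more, and 7.42% were lower by as much. HIST2H4B-OT1 (chr1:149851074-149887388) had a listed value of 83.1 in SKOV3-OR and 341 in SKOV3 parental cells, a log2 ratio of −2.03. ENSG00000124635-AS1, named for HIST1H2BJ, had 11.8 in SKOV3-OR and 61.3 in SKOV3 parental cells (−2.28). ENSG00000180573-AS1, named for HIST1H2AC, had 28.8 in SKOV3-OR and 73.3 in SKOV3 parental cells (−1.32). ENSG00000158373-AS1, named for HIST1H2BD, lay the other way at 2.12 in SKOV3-OR and 0.0872 in SKOV3 parental cells (1.52). The HIST1H2BJ and HIST1H2AC loci each shared over 98% of their combined extent with the gene (98.9% and 98.1%), so that the antisense name and the histone gene itself describe nearly the same bases. HIST2H4B-OT1 is larger and spans HIST2H2AA4, HIST2H3A, HIST2H4B, HIST2H2BE and HIST2H2AC. Genes of the same histone type are often near-identical copies, and the sources used here do not say how reads matching several genes were assigned. In the authors' deposited table the log2 fold changes were −2.32 for HIST2H4B-OT1 (adjusted p = 3.12e-07), −2.66 for ENSG00000124635-AS1 (adjusted p = 6.17e-09), −1.63 for ENSG00000180573-AS1 (adjusted p = 0.000343) and 4.28 for ENSG00000158373-AS1 (adjusted p = 1.12e-09). The authors' p-values compare 2 libraries, not 2 conditions, here and below.

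Most assembled transcripts were low, and a few carried most of the summed value. All 1039 together had 2287 in SKOV3-OR (4.80% of the library's sum) and 2395 in SKOV3 parental cells (5.11%). ANKRD28-OT1 alone (chr3:15661149-15738749, GRCh38), with a listed value of 1062 in SKOV3-OR and 846 in SKOV3 parental cells (log2 ratio 0.33), made up 46.4% of the assembled sum in SKOV3-OR and 35.3% in SKOV3 parental cells. ANKRD28 encodes a regulatory subunit of protein phosphatase 6, and its listed Ensembl transcripts that overlap the locus summed to 4.53 in SKOV3-OR and 4.55 in SKOV3 parental cells. The locus takes in other annotated genes besides ANKRD28, and the table does not split its value among them. The 10 transcripts of largest mean held 65.9% of the assembled sum in SKOV3-OR and 67.7% in SKOV3 parental cells. The median listed value was 0.423 in SKOV3-OR and 0.407 in SKOV3 parental cells, while the medians of 45668 Ensembl transcripts on the same chromosomes were 0.199 in SKOV3-OR and 0.155 in SKOV3 parental cells. A listed value of 1 was reached by 177 assembled transcripts in SKOV3-OR and by 175 in SKOV3 parental cells.

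**Figure D1:**
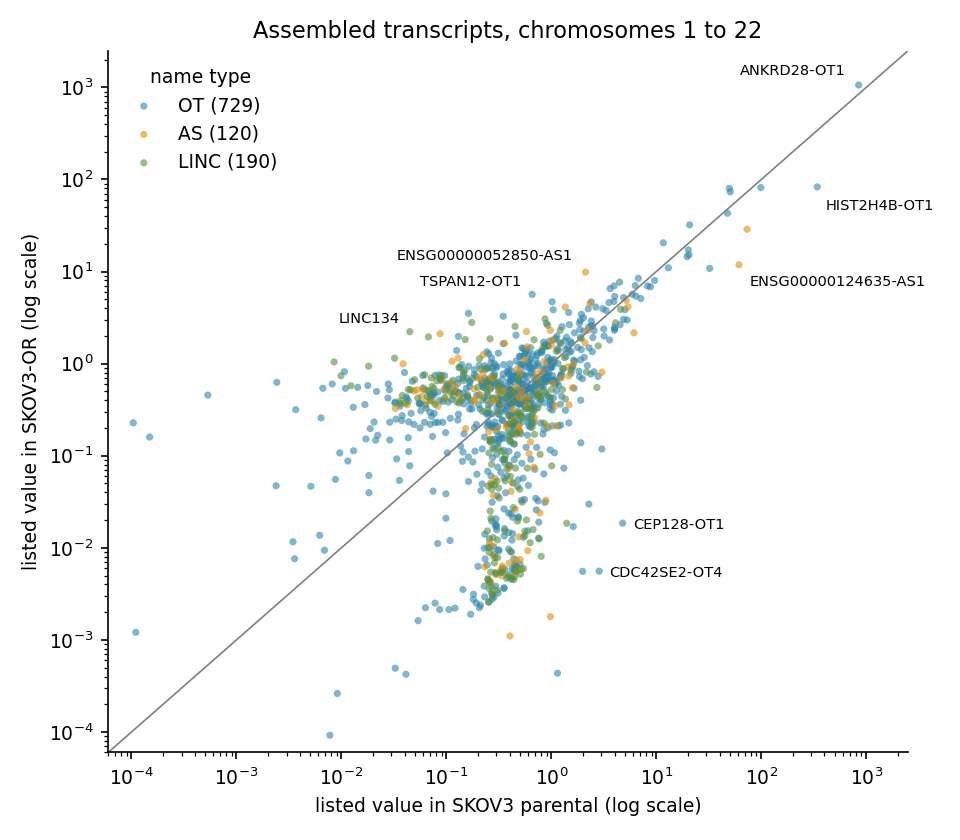
Listed value in SKOV3-OR (vertical axis) against SKOV3 parental cells (horizontal axis), both on log scales, for 1039 assembled transcripts coloured by name type. The grey line marks equal values. ANKRD28-OT1 stands at the top right with 1062 in SKOV3-OR and 846 in SKOV3 parental cells, the histone transcripts HIST2H4B-OT1 and ENSG00000124635-AS1 lie under the line, and a column of low SKOV3-OR values stretches down below 0.1.

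At the low end the lines differed. A listed value under 0.1 was given for 230 assembled transcripts (22.1%) in SKOV3-OR and 146 (14.1%) in SKOV3 parental cells. Over all listed transcripts these shares were 35.9% in SKOV3-OR and 39.6% in SKOV3 parental cells, the other way round. Most of those are Ensembl transcripts, which do not need reads to have an identifier. How far this shaped the difference from the background was not tested. The difference was widest for the LINC transcripts, with 65 of 190 (34.2%) under 0.1 in SKOV3-OR and 29 (15.3%) in SKOV3 parental cells. The 25th percentile of all assembled transcripts was 0.141 in SKOV3-OR and 0.229 in SKOV3 parental cells, while the 75th percentile was 0.749 in SKOV3-OR and 0.738 in SKOV3 parental cells. A listed value was higher in SKOV3-OR for 481 assembled transcripts (46.3%), against 57.4% of all listed transcripts, and for 72 of the LINC transcripts (37.9%).

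The authors' deposited fold changes showed the same imbalance, and many of them rest on a count of 0. Their fold changes matched ratios of whole counts with a small constant added to each library (0.114 in SKOV3-OR and 0.136 in SKOV3 parental cells). For 235 assembled transcripts (22.6%) the count inferred in this way was 0 in 1 library although the table lists a value above 0 there, against 22.3% of all listed transcripts. A count of 0 is inferred from the fold change here and below, since the counts themselves are not given. The count was 0 in SKOV3-OR for 150 assembled transcripts (14.4%) and in SKOV3 parental cells for 85 (8.18%), whereas over all listed transcripts these shares were 11.4% in SKOV3-OR and 10.9% in SKOV3 parental cells. Of the LINC transcripts, 52 (27.4%) had a count of 0 in SKOV3-OR and 22 (11.6%) in SKOV3 parental cells. In the authors' deposited table, at an adjusted p below 0.05, 245 assembled transcripts (23.6%) were higher and 371 (35.7%) lower in SKOV3-OR. Over all listed transcripts, 23.6% were higher and 22.3% lower, so the share called lower was above the background and the share called higher was equal to it. By name type, 156 of 729 OT, 32 of 120 AS and 57 of 190 LINC transcripts were called higher, and 226, 50 and 95 of them were called lower. The authors' median log2 fold change was −0.44 for assembled transcripts and 0.077 for all listed transcripts. Because a fold change against a count of 0 is set by the added constant, it is not a bound on the difference.

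**Figure D2:**
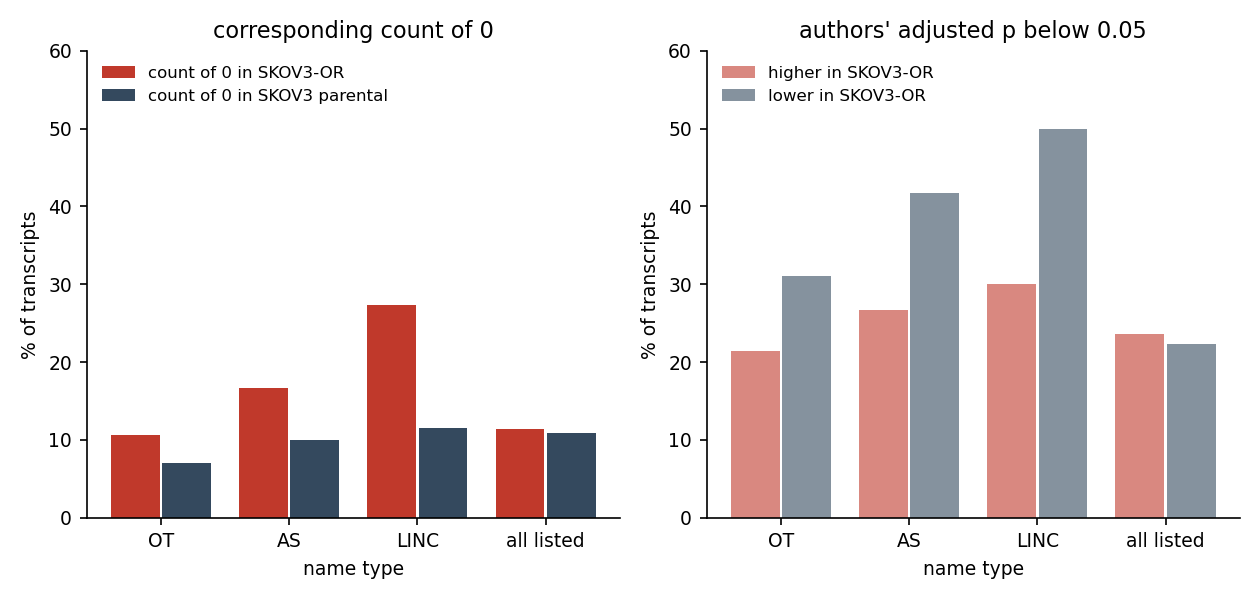
Share of transcripts (percent) with a corresponding count of 0 in SKOV3-OR or SKOV3 parental cells (left panel) and with an adjusted p below 0.05 in the authors' deposited table (right panel), for OT, AS, LINC and all listed transcripts. The LINC bars are the tallest, with 27.4% at a count of 0 in SKOV3-OR and 95 of 190 called lower, while the paired bars of all listed transcripts are close to each other.

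Among assembled transcripts that reached a mean of 1, the counts past 2-fold did not lean toward lower values. These were 174 (16.7%), and 17 of them (9.77%) were higher in SKOV3-OR by 2-fold or more, while 14 (8.05%) were lower by as much. Of all 6711 listed transcripts past the same filter, 11.8% were higher and 7.42% lower by 2-fold or more, so both shares were near the background. The median log2 ratio was 0.078 for assembled transcripts and 0.15 for all listed transcripts. Rescaled by the median ratio of all listed transcripts (1.16), 11 (6.43%) were higher and 17 (9.94%) lower of 171, beside 9.18% higher and 9.93% lower of all listed transcripts under the same scaling, so that the share of higher ones among those past 2-fold was 39.3% after rescaling and 54.8% before it. The OT transcripts had 7 higher and 9 lower of 131, the AS transcripts 4 and 4 of 22, and the LINC transcripts 6 and 1 of 21. All 6 higher LINC transcripts came from 1 cluster on chromosome 5, without which 11 assembled transcripts were higher and 14 lower of 166.

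That cluster held 14 overlapping models, LINC130 and LINC132 to LINC144, within 36483 bases at chr5:49609816-49646298, and 13 of the 14 were higher in SKOV3-OR. It was singled out after its values were seen. Its summed listed value was 24.3 in SKOV3-OR and 4.32 in SKOV3 parental cells, a 5.62-fold difference. With 1 added to each sum, the log2 ratio of the sums was 2.25. No GENCODE gene lay in it. The nearest gene on the left, AC122694.1, ended 3713846 bases away, and the nearest on the right, EMB, which encodes the membrane glycoprotein embigin, began 749894 bases away. Individual values ran from 0.00554 to 3.07 with a median of 1.84 in SKOV3-OR, and from 0.00851 to 0.922 with a median of 0.163 in SKOV3 parental cells, so the ranges overlapped. LINC135 had 3.07 in SKOV3-OR and 0.870 in SKOV3 parental cells (log2 ratio 1.12). LINC139, which spans 30198 bases of the cluster, had 2.80 in SKOV3-OR and 0.175 in SKOV3 parental cells (1.69). LINC136 had 1.95 in SKOV3-OR and 0.0674 in SKOV3 parental cells (1.47). These models differ in extent but all point one way. LINC134, with 2.23 in SKOV3-OR and 0.0448 in SKOV3 parental cells (1.63), LINC142, with 2.62 in SKOV3-OR and 0.922 in SKOV3 parental cells (0.91), and LINC130, with 0.495 in SKOV3-OR and 0.0688 in SKOV3 parental cells (0.48), had a count of 0 in SKOV3 parental cells. The exception was LINC141, with 0.00554 in SKOV3-OR and 0.454 in SKOV3 parental cells (−0.53), although LINC142 shares its left end and ends 2 bases further right. The cluster lies in or beside the centromeric region, where sequence is repetitive, and the models share bases, so the 14 are not separate observations. The authors' deposited table called 13 of them higher and 1 lower.

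**Figure D3:**
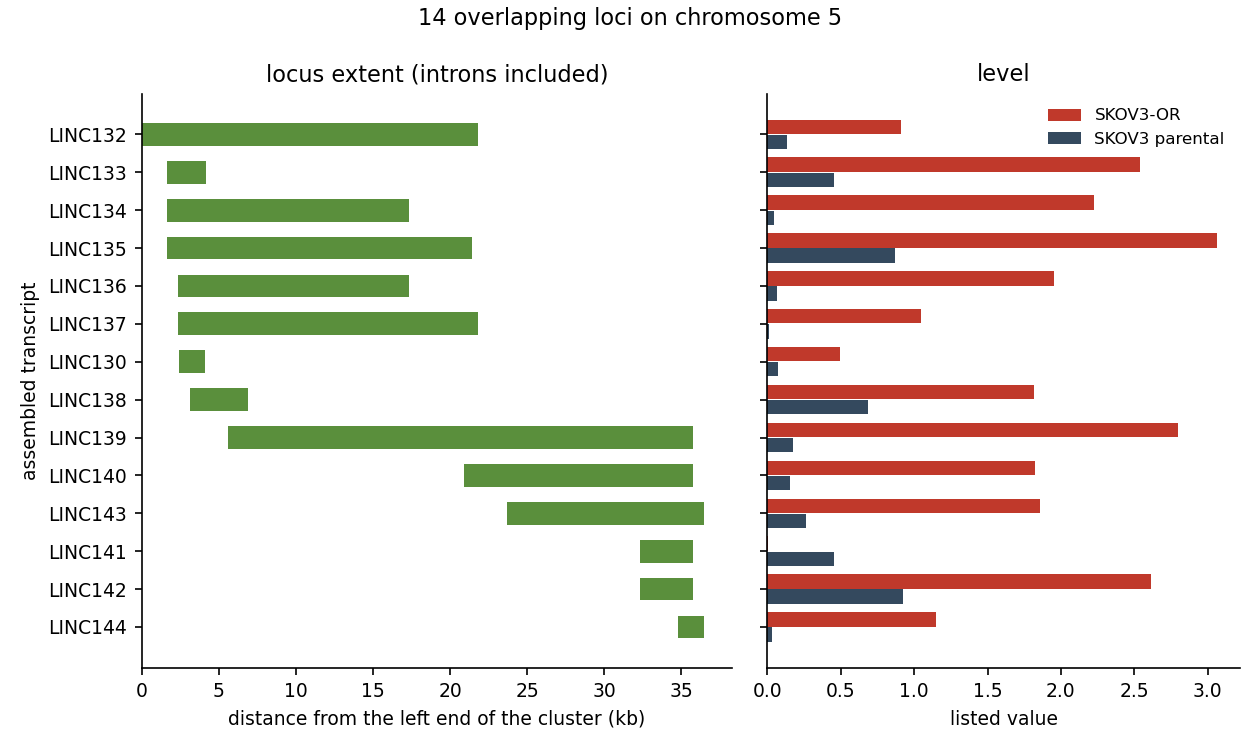
The 14 overlapping models of the chromosome 5 cluster, with their extent including introns in kilobases from the left end of the cluster (left panel) and their listed values in SKOV3-OR and SKOV3 parental cells (right panel). The SKOV3-OR bar is the longer one for 13 of the 14 models, up to 3.07, and LINC141 is the exception.

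Of the other LINC transcripts with a mean of at least 1, LINC159 (chr7:1518682-1519337) was past 2-fold, and its 2 readouts pointed in opposite directions. Its listed value was 0.551 in SKOV3-OR and 2.72 in SKOV3 parental cells (log2 ratio −1.26), while the authors' deposited table gave a log2 fold change of 7.31 (adjusted p = 0.000163) with a count of 0 in SKOV3 parental cells. Such a conflict with the authors' call occurred in 6 assembled transcripts, all with a count of 0 in 1 library. Another group of 4 models on chromosome 4 between 24318757 and 24339190 was mixed. LINC115 had 2.30 in SKOV3-OR and 1.21 in SKOV3 parental cells (0.58), whereas LINC116, with the same start and end, had 0.811 in SKOV3-OR and 2.16 in SKOV3 parental cells (−0.80). LINC117, with 2.78 in SKOV3-OR and 4.08 in SKOV3 parental cells (−0.43), was lower too. The most abundant LINC transcript, LINC93 on chromosome 22, differed little, with 3.90 in SKOV3-OR and 4.57 in SKOV3 parental cells (−0.19).

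Apart from those of histone genes, 3 AS transcripts were higher in SKOV3-OR by 2-fold or more and 2 were lower by as much. ENSG00000052850-AS1, named for the homeodomain transcription factor gene ALX4 (chr11:44301321-44325738), had a listed value of 9.85 in SKOV3-OR and 2.12 in SKOV3 parental cells (log2 ratio 1.80). In the authors' deposited table its log2 fold change was 1.93 (adjusted p = 2.11e-05). ENSG00000130202-AS1, named for the cell adhesion gene NECTIN2, had 4.11 in SKOV3-OR and 1.36 in SKOV3 parental cells (1.11). Both were higher in SKOV3-OR, as was ENSG00000164615-AS1, named for CAMLG, which helps insert tail-anchored membrane proteins, with 2.23 in SKOV3-OR and 0.579 in SKOV3 parental cells (1.03). On the lower side, ENSG00000253368-AS1, named for TRNP1, a nuclear protein studied in brain development, had 2.17 in SKOV3-OR and 6.13 in SKOV3 parental cells (−1.17). ENSG00000162878-AS1, named for the secreted kinase gene PKDCC, had 0.807 in SKOV3-OR and 3.04 in SKOV3 parental cells (−1.16). The listed Ensembl transcripts of PKDCC that overlap it lay the same way, at 3.28 in SKOV3-OR and 5.13 in SKOV3 parental cells. Just under 2-fold lay ENSG00000261371-AS1, named for the endothelial adhesion gene PECAM1, with 1.67 in SKOV3-OR and 0.358 in SKOV3 parental cells (0.98). It covers a small part of that gene, sharing 6.02% of their combined extent.

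The OT transcripts with the largest positive ratios were low in SKOV3 parental cells, at 1.04 or less. TSPAN12-OT1 (chr7:120855172-120858402) lies inside TSPAN12, a tetraspanin of Norrin signalling, and had a listed value of 5.65 in SKOV3-OR and 0.656 in SKOV3 parental cells (log2 ratio 2.01), where the count was 0. TRIM66-OT1 had 3.52 in SKOV3-OR and 0.162 in SKOV3 parental cells (1.96). Its locus also holds RPL27A, a protein of the large ribosomal subunit, and the small nucleolar RNAs SNORA3A and SNORA3B. The listed Ensembl transcripts of RPL27A there lay the other way, at 1.10 in SKOV3-OR and 1.54 in SKOV3 parental cells. TMEM52B-OT1 had 3.27 in SKOV3-OR and 0.348 in SKOV3 parental cells (1.66), and its locus shared most with OLR1, the gene of a receptor for oxidized LDL on the opposite strand from TMEM52B, just under 80% of the combined extent. Listed Ensembl transcripts of TMEM52B there lay the other way, at 0.366 in SKOV3-OR and 1.21 in SKOV3 parental cells. SOS1-OT1, inside the gene of the Ras exchange factor SOS1, had 4.695 in SKOV3-OR and 1.02 in SKOV3 parental cells (1.50). MEGF6-OT1 had 1.98 in SKOV3-OR and 0.130 in SKOV3 parental cells (1.40), and C19orf81-OT1 had 3.85 in SKOV3-OR and 1.04 in SKOV3 parental cells (1.25). Listed Ensembl transcripts of MEGF6 over the first lay the other way, at 0.673 in SKOV3-OR and 0.917 in SKOV3 parental cells. Those of C19orf81 over the second lay the same way, at 0.0383 in SKOV3-OR and 0.00345 in SKOV3 parental cells. EFCAB12-OT1 was the other OT transcript past 2-fold, with 2.04 in SKOV3-OR and 0.461 in SKOV3 parental cells (1.06). Listed Ensembl transcripts of MBD4 over it lay the same way, at 7.24 in SKOV3-OR and 3.15 in SKOV3 parental cells.

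Besides HIST2H4B-OT1, the OT transcripts with the largest negative ratios were below 1 in SKOV3-OR, with the exception of ARL10-OT3. CEP128-OT1 (chr14:80690351-80761592) lies inside CEP128, which encodes a centriolar protein, and had a listed value of 0.0185 in SKOV3-OR and 4.78 in SKOV3 parental cells (log2 ratio −2.50). The listed Ensembl transcripts of CEP128 went the opposite way, with a sum of 3.91 in SKOV3-OR and 0.904 in SKOV3 parental cells (1.37). The authors' deposited table gave CEP128-OT1 a log2 fold change of −8.28 (adjusted p = 2.64e-45). IGSF23-OT1 had 0.0298 in SKOV3-OR, where the count was 0, and 2.28 in SKOV3 parental cells (−1.67). MBNL2-OT1, inside the gene of the splicing regulator MBNL2, had 0.138 in SKOV3-OR and 1.91 in SKOV3 parental cells (−1.35). ARL10-OT3 was far more abundant, with 10.8 in SKOV3-OR and 32.2 in SKOV3 parental cells (−1.49). Its locus (chr5:176392443-176416566) shared 99.9% of the combined extent with CLTB, the clathrin light chain gene, on the opposite strand from ARL10. RNF185-OT1, with 0.727 in SKOV3-OR and 2.79 in SKOV3 parental cells (−1.13), and CFTR-OT3, with 0.401 in SKOV3-OR and 1.90 in SKOV3 parental cells (−1.05), completed the OT transcripts past 2-fold together with a pair from CDC42SE2.

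**Figure D4:**
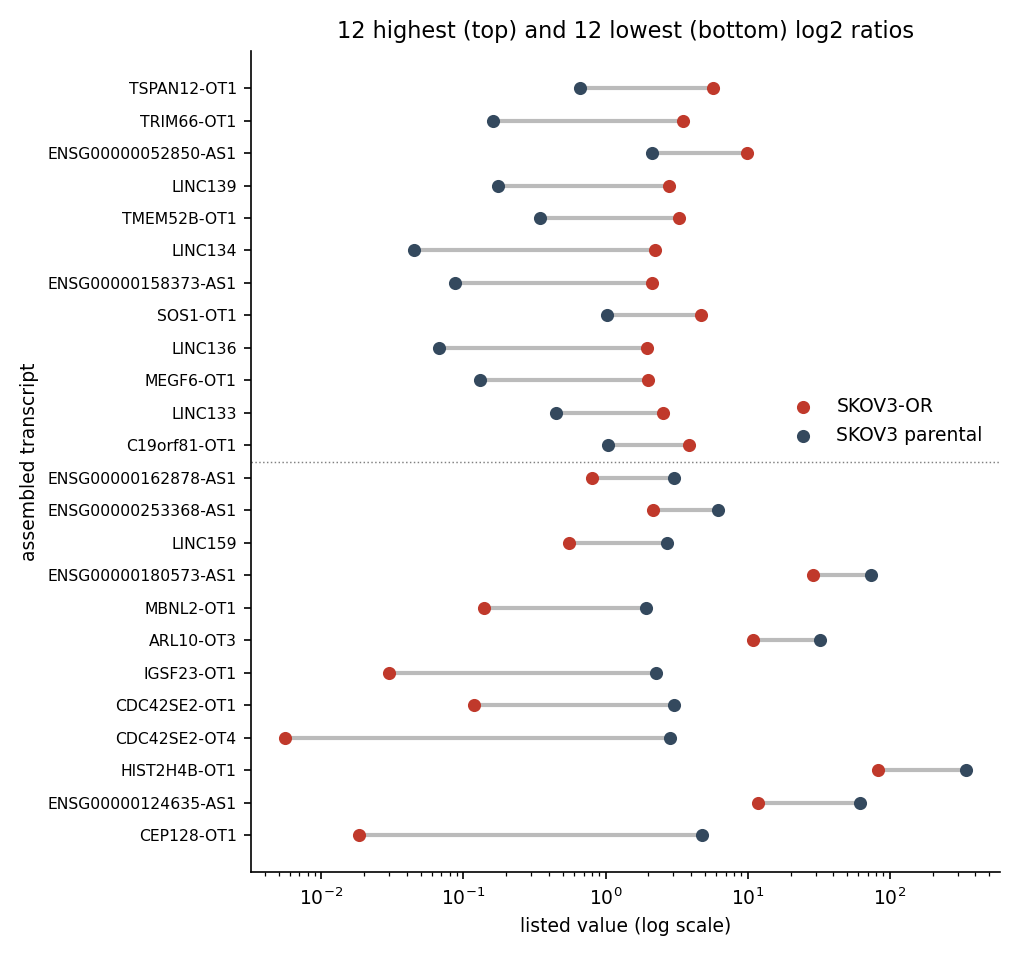
Listed values (log scale) of the 12 assembled transcripts with the highest log2 ratios (top) and the 12 with the lowest (bottom), among those with a mean of at least 1, in SKOV3-OR and SKOV3 parental cells. Grey bars join the values of 1 transcript. CEP128-OT1 at the bottom has 0.0185 in SKOV3-OR and 4.78 in SKOV3 parental cells, while HIST2H4B-OT1, ENSG00000124635-AS1 and ENSG00000180573-AS1 are above 10 in both lines.

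Models of 1 locus did not always move together, and at CDC42SE2 they moved apart. CDC42SE2 encodes a small effector of the GTPase CDC42, and 4 models spanned nearly the same bases inside it (130111 to 130718 bases) and ended at the same base. CDC42SE2-OT4 had a listed value of 0.00558 in SKOV3-OR and 2.86 in SKOV3 parental cells (log2 ratio −1.94), and CDC42SE2-OT1 had 0.118 in SKOV3-OR and 3.03 in SKOV3 parental cells (−1.85). CDC42SE2-OT3 had 0.745 in SKOV3-OR and 0.0596 in SKOV3 parental cells (0.72), and CDC42SE2-OT2 had 0.148 in SKOV3-OR and 0.0289 in SKOV3 parental cells (0.16). The count was 0 in SKOV3-OR for CDC42SE2-OT1 and in SKOV3 parental cells for CDC42SE2-OT2 and CDC42SE2-OT3. Summed over all 4, the locus had 1.02 in SKOV3-OR and 5.97 in SKOV3 parental cells. The authors' deposited table gave CDC42SE2-OT1 a log2 fold change of −17.61 (adjusted p = 3.43e-67) and CDC42SE2-OT3 one of 15.30 (adjusted p = 6.28e-52). The 1039 transcripts fell into 905 separate loci, of which 98 held 2 or more models. Among these 98, 48 had models on both sides of 0, 16 had all models higher and 34 had all models lower in SKOV3-OR.

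Some loci had all or nearly all of their models on the lower side. The 4 models named for HDDC2 shared 75.5% of their combined extent with TPD52L1, and they summed to 3.63 in SKOV3-OR and 7.77 in SKOV3 parental cells. The largest of them, HDDC2-OT3, had 1.81 in SKOV3-OR and 3.59 in SKOV3 parental cells (log2 ratio −0.71). The 3 models named for DNAH3, with TMEM159-OT1, summed to 0.845 in SKOV3-OR and 2.39 in SKOV3 parental cells (log2 ratio of sums −0.88). DNAH3-OT2 and DNAH3-OT3 shared 97.2% and 97.5% of the combined extent with TMEM159, and each shared 0.36% with DNAH3. At CFTR, the chloride channel gene, the 3 CFTR models and CTTNBP2-OT1 summed to 2.59 in SKOV3-OR and 6.44 in SKOV3 parental cells (−1.05), and CTTNBP2-OT1 alone was on the higher side, with 0.452 in SKOV3-OR and 0.380 in SKOV3 parental cells (0.073). These loci were picked out after their values were seen. The developmental homeobox gene HOXD3 had 5 models, all lower, with a sum of 1.20 in SKOV3-OR and 2.10 in SKOV3 parental cells (−0.50). The listed Ensembl transcripts of HOXD-AS2 that overlap part of these models lay the same way, with 1.63 in SKOV3-OR and 4.77 in SKOV3 parental cells. Those of TPD52L1 over the HDDC2 models were lower too, with 12.7 in SKOV3-OR and 22.9 in SKOV3 parental cells. Opposite to the models of their loci lay HDDC2 itself, with 1.59 in SKOV3-OR and 1.05 in SKOV3 parental cells, and 2 further genes. These were CFTR (0.253 in SKOV3-OR and 0.101 in SKOV3 parental cells) and TMEM159 (0.742 in SKOV3-OR and 0.00435 in SKOV3 parental cells).

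Of the HOXD3 models, 4 (HOXD3-OT1, HOXD3-OT2, HOXD3-OT3 and HOXD3-OT5) took in the hairpin of MIR10B, and GPER1-OT1 and GPER1-OT2 took in that of MIR339. MicroRNAs are cut from such hairpins and recognise targets mainly through the seed. The MIR10B hairpin lies on the plus strand and that of MIR339 on the minus strand, while the strand of the models is not given. Hairpins were placed by position only, so whether one is part of a model's RNA was not tested. Of 1562 hairpins in the RefSeq table used, 14 lay inside 20 assembled transcripts, and 6 of the 20 reached a mean of 1. By GENCODE, ANKRD28-OT1 also spans MIR3134. The mature sequences below, from RefSeq (GRCh38.p14), have the seed (bases 2 to 8) in capitals, and their seeds differ.
hsa-miR-339-5p: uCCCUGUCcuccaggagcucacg
hsa-miR-339-3p: uGAGCGCCucgacgacagagccg
hsa-miR-10b-3p: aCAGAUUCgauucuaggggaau
GPER1-OT2 had a listed value of 2.65 in SKOV3-OR and 1.49 in SKOV3 parental cells (log2 ratio 0.55), while GPER1-OT1 had 0.879 in SKOV3-OR and 1.30 in SKOV3 parental cells (−0.29). The 4 HOXD3 models over MIR10B were all below 0.4 in both libraries, the highest in SKOV3-OR being HOXD3-OT3 at 0.281. Total RNA libraries of this kind do not measure mature microRNAs.

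The locus of an OT transcript often matched a different gene from the one in its name. Of 729 OT transcripts, 719 overlapped the gene they are named for and 326 lay inside it. A locus was called coinciding with a gene where the 2 shared at least 80% of their combined extent. Of the OT transcripts, 164 (22.5%) coincided with a GENCODE gene, 47 of them with the gene in the name and 117 with another gene. Of these 117, 111 matched a gene on the opposite strand from the named gene, and 107 matched a protein-coding gene. Counted over all OT transcripts, 324 (44.4%) began or ended at the exact edge of a GENCODE transcript. None of the LINC and 6 of the AS transcripts coincided with a gene.

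**Figure D5:**
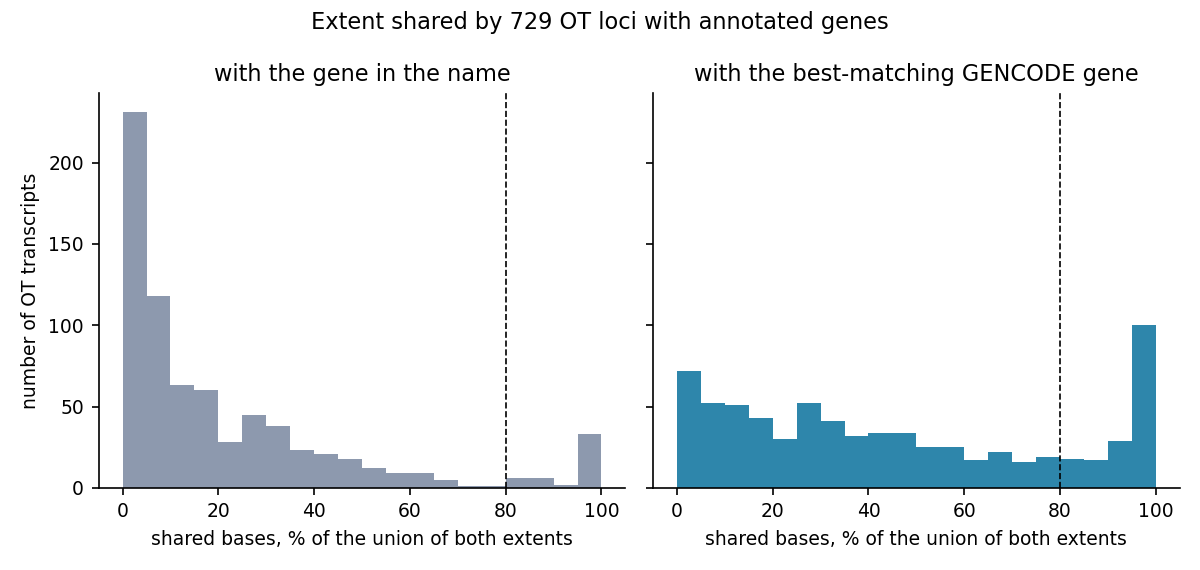
Number of the 729 OT transcripts by the share of bases (percent of the union of both extents) that their locus has in common with the gene in the name (left panel) or with the best-matching GENCODE gene (right panel). The dashed line marks 80%. Beyond it lie 47 transcripts in the left panel, and the right panel has its tallest bar at nearly complete sharing.

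Transcripts that coincided with another gene reached a mean of 1 more often than the other OT transcripts, and few of these were past 2-fold. Of these 117, 48 (41.0%) reached a mean of 1, against 8 of 47 (17.0%) that coincided with the named gene and 75 of 565 (13.3%) that coincided with no gene. Of the 48, 0 were higher by 2-fold or more and 1, ARL10-OT3, was lower by as much, and their median log2 ratio was 0.0018. Of the 8, 0 were higher and 3 lower by 2-fold or more (median −0.42), and of the 75, 7 were higher and 5 lower (median 0.17), beside 11.8% higher and 7.42% lower over all listed transcripts. The median listed value of all 117 was 0.760 in SKOV3-OR and 0.761 in SKOV3 parental cells. CIZ1-OT1 shared 99.02% of the combined extent with C9orf16 and had 17.2 in SKOV3-OR and 20.2 in SKOV3 parental cells (−0.22). SH3D19-OT1 shared 99.7% with RPS3A, a ribosomal protein gene, and had 15.2 in SKOV3-OR and 20.5 in SKOV3 parental cells (−0.41). WDR83-OT1 shared 91.9% with WDR83OS and had 10.98 in SKOV3-OR and 13.03 in SKOV3 parental cells (−0.23). These 3 differed in the same direction by less than 2-fold. TMEM266-OT1 shared 99.05% with ETFA, which encodes a mitochondrial electron carrier, and had 8.46 in SKOV3-OR and 6.74 in SKOV3 parental cells (0.29). KCTD2-OT1 shared 99.8% with ATP5PD, a subunit of ATP synthase, and had 5.67 in SKOV3-OR and 5.88 in SKOV3 parental cells (−0.045). DGUOK-OT1, which has the same start and end as a GENCODE transcript of the mitochondrial kinase gene DGUOK, had 20.5 in SKOV3-OR and 11.7 in SKOV3 parental cells (0.77).

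Several other abundant OT transcripts lay over genes of ribosomal proteins, ferritin or other abundant proteins without sharing 80% of their extent. TRABD2A-OT1 shared 75.6% of its combined extent with TMSB10, which encodes the actin-binding protein thymosin beta 10, and had a listed value of 81.7 in SKOV3-OR and 99.1 in SKOV3 parental cells (log2 ratio −0.28). DENND4C-OT1, whose 179774 bases include the ribosomal protein gene RPS6, had 80.1 in SKOV3-OR and 49.7 in SKOV3 parental cells (0.68). BEST1-OT1 lies inside the ferritin heavy chain gene FTH1, with 39.2% of their combined extent shared, and also overlaps BEST1. It had 73.4 in SKOV3-OR and 50.7 in SKOV3 parental cells (0.53). In the BEST1-OT1 and DENND4C-OT1 loci, listed Ensembl transcripts differed more than the assembled ones. FTH1 was at 48.2 in SKOV3-OR and 6.97 in SKOV3 parental cells, and RPS6 at 6.45 in SKOV3-OR and 0.614 in SKOV3 parental cells. In the TRABD2A-OT1 locus, those of TRABD2A were low in both lines, at 0.105 in SKOV3-OR and 0.221 in SKOV3 parental cells. None of these 3 assembled transcripts had an adjusted p below 0.05 in the authors' deposited table.

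By position, 621 assembled transcripts (59.8%) overlapped the locus of at least 1 listed Ensembl transcript by 1 base or more. These were 569 OT transcripts (78.1%), 52 AS transcripts (43.3%) and none of the LINC transcripts. With at least 50% of the assembled locus covered by such a locus the number was 437 (42.1%), and with the Ensembl transcript itself at a mean of at least 1 it was 196 (18.9%). Against the full GENCODE 29 annotation, 848 (81.6%) lay over a protein-coding gene and 190 over no gene, of which 189 were LINC transcripts. The remaining LINC transcript, LINC51, lay over TNFSF12, a cytokine gene, and the OT transcript without a gene was ZNF469-OT1. For 449 genes both an OT transcript and an Ensembl transcript were listed. In 39 of these both sums had a mean of at least 1, and 24 of the 39 lay on the same side of 0. Across the 39 genes Pearson's r between both log2 ratios was −0.031 and Spearman's rho 0.17, given as a description, since the genes share both libraries. Locus length, introns included, had a median of 16028 bases for OT, 4675 for AS and 3454.5 for LINC transcripts, against 5650 for Ensembl transcripts on chromosomes 1 to 22.

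The assembled transcripts were spread over all 22 autosomes. Chromosome 1 held the most, with 110 (2.33% of its listed transcripts), followed by chromosome 2 with 82 and chromosome 5 with 68. As a share of the listed transcripts of a chromosome they ranged between 1.46% on chromosome 11 and 3.45% on chromosome 9. The 5 longest loci all had low values. IMMP2L-OT1 spanned 727700 bases of the mitochondrial peptidase gene IMMP2L and had a listed value of 0.0137 in SKOV3-OR and 0.00621 in SKOV3 parental cells. TIAM1-OT1, over the gene of the Rac exchange factor TIAM1, had 0.602 in SKOV3-OR and 0.00818 in SKOV3 parental cells (log2 ratio 0.67), where the count was 0. AC097634.4-OT1, over FOXP1, had 0.456 in SKOV3-OR and 0.000534 in SKOV3 parental cells (0.54). SLC25A48-OT1 had 0.0397 in SKOV3-OR and 0.0183 in SKOV3 parental cells (0.030). The authors' calls depended on length differently in assembled and in all transcripts. At an adjusted p below 0.05 in the authors' deposited table, the called share of assembled transcripts was 62.3% in the shortest of 4 length classes of equal size and 55.8% in the longest. For all listed transcripts in the same classes it was 29.1% and 69.5%.

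Olaparib acts on DNA repair, and 45 genes of homologous recombination, the Fanconi anaemia pathway, drug efflux and the PARP pathway were checked for assembled transcripts over them. Over these genes lay 6 assembled transcripts, 2 on the higher and 4 on the lower side. None of the 6 reached a mean of 1, which 16.7% of all assembled transcripts did. RAD51B-OT1, whose 562413 bases lie inside the homologous recombination gene RAD51B, had a listed value of 0.229 in SKOV3-OR and 0.0784 in SKOV3 parental cells (log2 ratio 0.19). The listed Ensembl transcripts of RAD51B over it summed to 3.70 in SKOV3-OR and 1.14 in SKOV3 parental cells. BRCA1-OT1 had 0.415 in SKOV3-OR and 0.0422 in SKOV3 parental cells (0.44), where the count was 0, and its locus lies over one end of BRCA1 and over NBR1. BRCA1-OT1 shared 8.91% of the combined extent with BRCA1 and 50.8% with the long intergenic RNA gene AC060780.1. The listed Ensembl transcripts of AC060780.1 over it lay the other way, at 0.0587 in SKOV3-OR and 0.0915 in SKOV3 parental cells. FANCC-OT1, inside the Fanconi anaemia core complex gene FANCC, had 0.313 in SKOV3-OR and 1.02 in SKOV3 parental cells (−0.62), while the listed Ensembl transcripts of FANCC over it lay the other way, with 1.21 in SKOV3-OR and 0.461 in SKOV3 parental cells. ENSG00000125257-AS1, named for the efflux pump gene ABCC4, had 0.0750 in SKOV3-OR and 0.684 in SKOV3 parental cells (−0.65). The ABCC4 transcripts lay the same way, with 0.338 in SKOV3-OR and 2.23 in SKOV3 parental cells. PARG-OT1 shared 94.7% of its combined extent with TIMM23B and 18.2% with PARG. NBN-OT1 shared 99.3% with DECR1 and 1.76% with NBN. Which gene either model belongs to was not tested, as the table gives no strand. PARG-OT1 had 0.225 in SKOV3-OR and 0.433 in SKOV3 parental cells (−0.23), and NBN-OT1 had 0.706 in SKOV3-OR and 0.725 in SKOV3 parental cells (−0.016).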

How the data were processed

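Total RNA of 1 SKOV3-OR and 1 SKOV3 parental library was sequenced. Per the submitters' processing notes, HISAT2 and StringTie were used (versions not stated), and the build is mm10, but the deposited loci are human and match GRCh38. The authors deposited a normalized signal per transcript and library whose unit is not named, and a log2 fold change and p-values that, per the file headers, compare both libraries. The sources used here do not give their test. The table held 0 further columns of per-sample values, and a second list of 20 transcripts was not used. Depth is unknown, so no counting interval is given.

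Loci were compared with GENCODE 29, with an overlap of at least 1 base, using Python 3.11.15, pandas 2.3.3 and numpy 2.4.6. Log2 ratios used a pseudocount of 1 and a mean of at least 1. A count of 0 was read from the deposited fold changes where the other count came out whole within 0.001 (2e-06 of the count for large ones). That count also had to follow the listed value times locus length within 1 on the log2 scale. Only the whole-number part of this rule was run on simulated counts. These were built with the same formula and constants, so recovery there cannot show how the authors' fold changes arose. No test was made with 1 library per group. Named transcripts are the 12 highest and 12 lowest ratios, the 10 largest means, the 5 longest loci and those over repair or efflux genes, with the Ensembl gene of largest value over each. Others were chosen after their values were seen. Some items, transcripts named by this rule among them, are not reported here. The assembled transcripts, gene lists and tests were chosen with earlier results of these data known. Alternatives changed the pseudocount, filter, scaling, treatment of a count of 0, fold change used, overlap rule and number of models per locus.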

Additional observations from a re-analysis of the deposited data

How the results depend on the processing

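Of 174 assembled transcripts with a mean of at least 1, 17 were higher in SKOV3-OR by 2-fold or more and 14 lower. These counts were 28 and 23 with a pseudocount of 0.1, 1 and 4 with a pseudocount of 5, 26 and 36 by the authors' log2 fold change, and 1 and 4 of 29 with a mean of at least 5. Rescaled by the median ratio they were 11 and 17. Over all listed transcripts, 21.5% were higher and 12.6% lower with a pseudocount of 0.1, 2.32% and 1.68% with a pseudocount of 5, 16.7% and 18.5% by the authors' log2 fold change, 15.9% and 11.8% with a mean of at least 5, and 9.18% and 9.93% when rescaled. The assembled shares were 16.1% and 13.2%, 0.575% and 2.30%, 14.9% and 20.7%, 3.45% and 13.8%, and 6.43% and 9.94% in the same order. Further alternatives gave between 12 and 21 higher and between 12 and 20 lower. These set values at a count of 0 to 0, dropped the filter, lowered it to 0.1 or kept 1 model per locus. Unfiltered, 2.02% of 1039 assembled transcripts were higher and 1.92% lower, beside 2.10% and 1.38% of all listed transcripts. The filter at 0.1 left 997, with shares of 2.11% higher and 2.01% lower, beside 3.16% and 2.08%. Setting values to 0 gave 10.4% higher and 7.51% lower of 173, beside 11.9% and 7.37%. Keeping 1 model per locus gave 8% each way of 150, without a matching background. The median log2 ratio of 0.078 changed sign to −0.091 when rescaled, −0.16 by the authors' fold change, −0.051 without a filter, −0.058 with a mean of at least 0.1 and −0.14 with a mean of at least 5. Over all listed transcripts the median was 0.15, and −0.017, −0.064, 0.025, 0.085 and 0.11 under the same alternatives. The share overlapping a listed Ensembl locus was 18.9% with Ensembl transcripts of a mean of at least 1. The log2 ratio of LINC159 turned to 0.63 with its SKOV3 parental value taken as 0, and was 7.31 by the authors' fold change. Chosen after seeing the data, leaving out the chromosome 5 cluster gave 11 higher, and the log2 ratio of that cluster was 2.56 with values at a count of 0 set to 0 and 2.06 when rescaled. At a sharing of 90% or more, 134 in place of 170 transcripts coincided with a gene. Of the 40 named transcripts, all 40 kept their direction and their side of 2-fold when rescaled, and 19 fell inside 2-fold with a pseudocount of 5. No paired analysis was possible because each group has 1 library, and no library could be left out for the same reason. An overlap on the same strand was not run because the table gives no strand. The cause of these dependences was not tested, and the unknown depth leaves the error of low values unknown.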

Other observations

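Of the 36 assembled transcripts outside chromosomes 1 to 22, 12 lay on 6 unplaced or unlocalized scaffolds, and these summed to 21.7 in SKOV3-OR and 11.2 in SKOV3 parental cells, with 7 of the 12 higher in SKOV3-OR. LINC200 had a listed value of 4.68 in SKOV3-OR and 0.846 in SKOV3 parental cells (log2 ratio 1.62). LINC199 had 2.13 in SKOV3-OR and 0.235 in SKOV3 parental cells (1.34), and LINC197 had 2.54 in SKOV3-OR and 0.580 in SKOV3 parental cells (1.16). LINC195 had the largest mean of the 12, with 8.52 in SKOV3-OR and 4.55 in SKOV3 parental cells (0.78). Going the other way, AC011043.1-OT1 had 1.30 in SKOV3-OR and 2.59 in SKOV3 parental cells (−0.64). These scaffold transcripts were singled out after their values were seen. The 24 assembled transcripts of the X chromosome summed to 13.5 in SKOV3-OR and 14.3 in SKOV3 parental cells, with 11 of the 24 higher in SKOV3-OR.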
